A study of Mus musculus with 4 samples.

Results

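The cells described here carried hash tag HT12, the tag that the submitters' sheet for the later of the series' 2 libraries of CD45+ mouse mammary gland cells names GF. A cell was taken where its gene barcode had at least 500 UMIs (unique molecular identifiers, each counted as 1 captured RNA molecule) from 300 genes or more, no more than 10% of them mitochondrial, and where HT12 had the most tag counts, at least 5 of them and at least 2 times those of the next tag. This gave 2344 GF cells of 17447 cells with a tag and of 21177 cells past the filters. A doublet caller marked 5.16% of the GF cells, and 2223 were analysed. They held 8013118 UMIs. The median GF cell had 2786 UMIs from 1355 genes.

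GF was set beside 3 samples of the same library, each apart. These were Gestation on HT5 (3461 cells analysed), Lactation on HT6 (683 cells) and Involution on HT8 (2423 cells). Regression on HT9 (2916 cells) and Balb/c on HT10 (2350 cells) are given as further values. All were mammary glands digested with collagenase, and the title of the library lists GF beside nulliparous, pregnant, lactating, involuting and regressed glands and Balb. The series' design states that Balb/c and germ-free mice were added for other backgrounds. The strain, age and reproductive stage of the GF animals, the strain of the stage animals and the number of animals behind a tag are not stated in these sources. A second tag of the sheet, HT2, is named Germ-free, its name is disputed by the titles, and its cells entered no share or call reported here. The tag barcodes that decide which cell is which, with the whole barcode in capitals, were as follows.
GF on HT12: CTGCAAATATAACGG
Gestation on HT5: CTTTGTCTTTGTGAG
Lactation on HT6: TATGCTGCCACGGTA
Involution on HT8: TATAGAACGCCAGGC

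Each name is 1 pooled sample, so no difference below has a replicate check and no p-value is given. Exact 95% intervals (Clopper-Pearson for shares, Poisson for sums) cover counting error only, and germ-free status, strain, reproductive stage and the single sample cannot be told apart. The tag was weaker in some samples: the median tag count was 23.0 in GF, 13 in Gestation, 7 in Lactation and 29.0 in Involution, and 23, 107, 152 and 12 cells entered at exactly 5 counts. Just outside the rule, 1948 cells of the library had a leading tag with fewer than 5 counts and 1782 had one under 2 times the next. A UMI of Ptprc, which encodes CD45, was found in 95.1% of GF cells and in 92.9% to 96.3% of the cells of the 3 stages. Epcam, an epithelial gene, had a UMI in 6.03% of GF cells, against 2.37%, 5.42% and 3.43%.

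As background, germ-free animals are raised without microbes, and immune compartments that depend on microbial stimulation are known to be small in them, above all IgA plasma cells of mucosal tissue. IgA plasma cells reach the mammary gland from mucosal sites around nursing and supply milk with antibody. Intraepithelial lymphocytes are T cells, many with a gamma-delta receptor, that live between epithelial cells and carry granzymes. Type I interferon genes are held at a tonic level in mononuclear phagocytes, and the microbiota is known to take part in that.

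GF cells held fewer T-like cells than Gestation and Lactation and more cells of the granzyme-rich cytotoxic clusters than Gestation and Involution. T-like cells were 20.9% of GF cells (95% interval 19.2 to 22.7), 43.1% of Gestation (41.4 to 44.7), 45.1% of Lactation (41.3 to 48.9) and 24.5% of Involution (22.8 to 26.2). The GF share was below those of Gestation and Lactation with intervals far apart, and that of Involution lay just above it. NK-like cells and 2 clusters led by Trgv2 and Trgc2 and by Gzmc and Xcl1 together were 24.8% of GF (23.0 to 26.6), 15.6% of Gestation (14.4 to 16.9), 20.6% of Lactation (17.7 to 23.9) and 9.57% of Involution (8.43 to 10.8). GF was the highest of these 4, its interval overlapped that of Lactation, and Balb/c was higher still at 39.1%. Within that group the Trgv2/Trgc2 cluster made up 9.90% of GF cells, against 6.50%, 11.7% and 2.35%. That cluster depends on the clustering: no cluster of this name was found when doublet calls were kept, or when immunoglobulin, receptor, milk, haemoglobin, ribosomal and mitochondrial genes were left out together, and clusters with Trgv2 and Trgc2 among their leading genes then took the NK-like name, and at a resolution of 2.0 it held 3.28% of GF and 3.99% of Gestation.

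B-like cells were 26.2% of GF (24.4 to 28.1), 20.1% of Gestation (18.8 to 21.5), 4.69% of Lactation (3.23 to 6.55) and 23.5% of Involution (21.8 to 25.2). GF lay above Gestation with intervals apart and overlapped Involution. Macrophage-like cells with the related Lyz1/Fn1 cluster were 8.46% of GF, between 4.36% in Gestation and 19.0% in Involution, with Lactation at 9.66%. Neutrophil-like cells were 1.71% of GF (1.21 to 2.34), against 0.665%, 0.732% and 0.578%, and 4.38% of Balb/c. The cycling Hist1h2ap/Mki67 cluster was 1.30% of GF, against 3.67%, 2.78% and 1.90%. Of 18 classes, GF lay above Gestation with intervals apart in 10 and below it in 3. Against Involution it lay above in 5 and below in 5, and against Lactation above in 2 and below in 2, with overlap in the other 14.

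**Figure D1:**
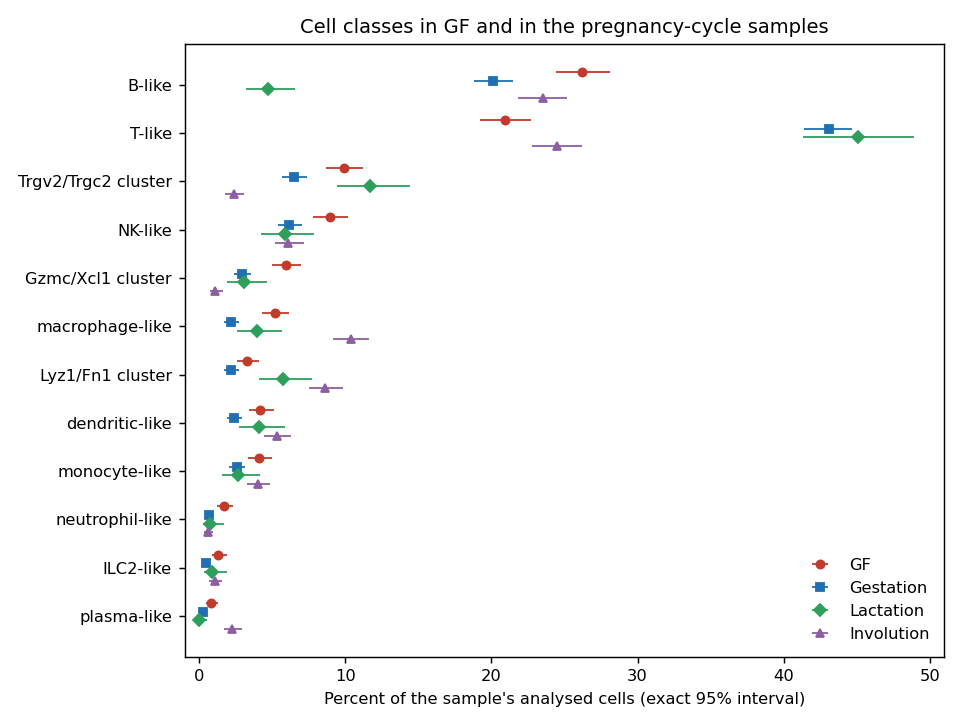
Share of each sample's analysed cells (x axis, percent) in 12 cell classes (y axis) for GF and the 3 stages, with exact 95% intervals as bars. GF lies at 20.9% T-like, far below Gestation and Lactation, and at 26.2% B-like.

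Plasma-like cells were fewer in GF than in Involution, and IgA and IgM led among them. Plasma cells secrete antibody, and the heavy chain gene with most UMIs in a cell gives its class. There were 18 plasma-like cells in GF, 9 in Gestation, 0 in Lactation and 54 in Involution. Per 1000 cells this was 8.10 in GF (4.81 to 12.8), 2.60 in Gestation (1.19 to 4.93) and 22.3 in Involution (16.8 to 29.0). The 0 of 683 Lactation cells allows up to 5.39 per 1000, so a level as low as that of Gestation could not be seen there. GF lay below Involution with intervals apart, and its interval overlapped that of Gestation. Regression had 26.7 per 1000 and Balb/c 6.81.

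IgA cells, with Igha at least 2 times the next heavy chain gene, numbered 7 in GF, 3 in Gestation and 45 in Involution. That is 3.15 per 1000 GF cells (1.27 to 6.48), 0.867 per 1000 in Gestation (0.179 to 2.53) and 18.6 per 1000 in Involution (13.6 to 24.8). IgA was the class of 38.9% of the GF plasma-like cells (17.3 to 64.3), against 83.3% in Involution (70.7 to 92.1), 85.9% in Regression and 75% in Balb/c. The GF interval lies below those of Involution and Regression and overlaps that of Balb/c. IgM cells, with Ighm leading, numbered 6 of the 18 in GF, 3 of 9 in Gestation, 2 of 54 in Involution, 2 of 78 in Regression and 0 of 16 in Balb/c. The remaining GF cells were 2 of class Ighg3, 1 of Ighg2b and 2 with no leading class. Some of these classes rest on few UMIs. The GF Ighg2b cell held 24 heavy chain UMIs, the Ighg3 cells 17 and 4, an Ighm cell 10 and a cell with no leading class 2. An Igha cell of Gestation held 6 and one of Involution 4. These cells count in the shares above. All 7 GF Igha cells held at least 1945 heavy chain UMIs and were among the 13 of 18 GF cells with at least 100. In Involution all but 1 of the 45 Igha cells were among the 49 of 54 cells with at least 100. Whether the IgA intervals of GF and Involution stay apart among such cells was not tested.

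The summed heavy chain RNA followed the cells. Igha was 767 UMIs per 10000 in GF plasma-like cells, 395 in Gestation and 1548 in Involution. Ighm was 451, 392 and 44.3. The joining chain Jchain, which links IgA and IgM into polymers, was 267, 194 and 457. A GF cell with no leading class, which also held 2846 Ighm UMIs, had 99.3% of the Ighg2b UMIs, so the Ighg2b sum of 93.0 is that of 1 cell. Free RNA was small beside these values: in T-like cells Igha was 3.29 per 10000 in GF and 2.69 to 3.15 in the stages, and Ighm 2.30 against 1.69 to 2.89. The median GF plasma-like cell had 1944.5 heavy chain UMIs, against 45.0 in Gestation and 2729.0 in Involution, and 13 of 18, 4 of 9 and 49 of 54 cells had at least 100.

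**Figure D2:**
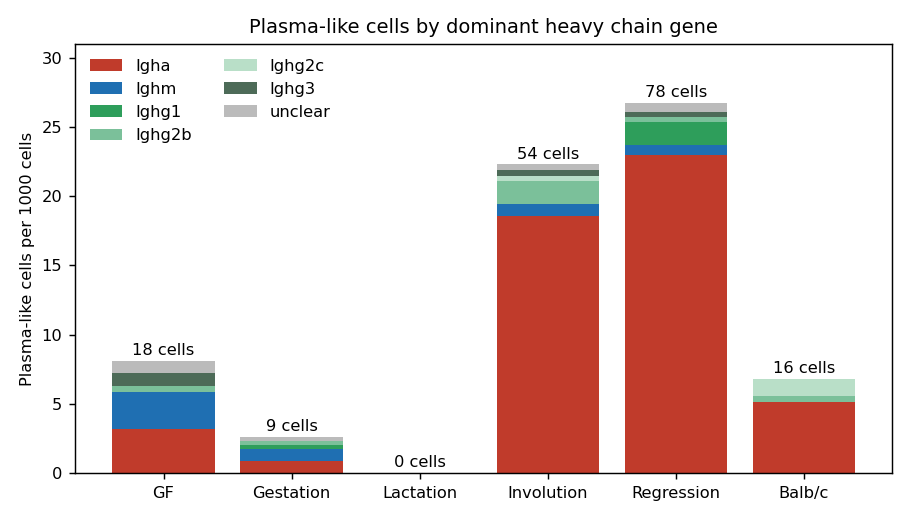
Plasma-like cells per 1000 analysed cells (y axis) in 6 samples (x axis), stacked by the heavy chain gene with at least 2 times the UMIs of the next, with the number of cells above each bar. GF has 18 cells of which 7 are Igha and 6 Ighm, and Igha fills most of the bars of Involution, Regression and Balb/c.

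Ighm and Ighd were the heavy chain genes with most RNA in B-like cells of each sample. Ighd, a gene of mature naive B cells, was 13.5 UMIs per 10000 in GF, 17.1 in Gestation, 16.7 in Lactation and 14.6 in Involution. Ighm was 41.3, 33.0, 41.0 and 34.0, with 17.5% of the GF UMIs in 1 cell. GF lay below Gestation for Ighd and above Gestation and Involution for Ighm, with intervals apart. The intervals do not allow for that 1 cell, and the top cell held only 2.53% of the Ighm UMIs in Gestation and 0.901% in Involution. A higher Ighm level is thus not shown for GF B-like cells at large. Igha was 3.63, 3.96, 3.53 and 3.70, near its level in T-like cells. The switched genes Ighg1, Ighg2b, Ighg2c and Ighg3 were all under 0.6 per 10000 in each sample. Jchain was 2.60 in GF (2.34 to 2.89), 0.861 in Gestation and 0.533 in Involution, with 74.9% of the GF UMIs in 1 cell, and was the 1 called of the 11 tested IgA and plasma cell genes. With only 32 Lactation cells, genes of B-like cells were set against Gestation and Involution alone. At least 2-fold in GF against both, with at least 30 UMIs in the highest sample, 12 of 6339 genes were higher (0.189% of genes tested) and 13 lower (0.205%), and 9 and 7 of these had Poisson intervals apart from both. Most of the higher names by rank are predicted genes with no known role (Gm28438, Gm49980, Gm42031, Gm43305, Gm32401 and Gm43065), beside Rhbdf1 and the chaperone gene Dnajb2. Gm43305 was 2.66 per 10000 in GF (2.39 to 2.95), 1.00 in Gestation and 0.589 in Involution. The lower names were Mid1, H4c9, 2700049A03Rik, Gm45546, Ifi208, Gm47230, Rnu12 and Slamf1, the last a receptor of activated lymphocytes at 0.308, 0.656 and 0.662. None of the 10 MHC class II genes was among them, and their sum was 247 per 10000 in GF, 243 in Gestation and 242 in Involution. The interferon response genes summed to 23.1, 21.9 and 43.4, so Involution alone stood high.

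T-like cells of GF had more RNA of regulatory T genes than those of the 3 stages, and less cytotoxic RNA than those of Gestation and Lactation. The T-like class joined 4 clusters, and their balance differed. A naive cluster led by Dapl1 and Lef1 was 40.4% of GF T-like cells, 52.9% of Gestation, 5.52% of Lactation and 60.9% of Involution. A cluster led by Ifng and Cxcr3 was 34.4%, 35.5%, 89.0% and 19.2%, and one led by Ctla4 and Foxp3 was 17%, 6.98%, 3.57% and 6.24%. Values within T-like cells thus compare different mixtures, in Lactation above all.

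Regulatory T cells restrain other T cells under the factor Foxp3. Foxp3 had 0.417 UMIs per 10000 in GF T-like cells (0.315 to 0.542), 0.224 in Gestation (0.182 to 0.272), 0.197 in Lactation (0.113 to 0.320) and 0.197 in Involution (0.140 to 0.269). Ikzf2, the regulatory T factor Helios, was 2.49 in GF (2.23 to 2.77), 1.38, 1.02 and 1.31. Ctla4, an inhibitory receptor, was 1.09 in GF (0.925 to 1.29), 0.581, 0.320 and 0.733. In all of these GF was the highest of the 4 samples, with its interval apart from those of the stages or, for Foxp3 against Lactation, nearly so. Of the 16 regulatory T genes 12 were tested, 8 were above all 3 stages, 1 was called higher and 0 lower, and the list summed to 8.48 per 10000, against 5.45, 4.56 and 6.33. The median log2 ratio of those tested was 0.43, 1.02 and 0.26. After thinning each cell to 1000 UMIs, a Foxp3 UMI was left in 2.39% of GF T-like cells (1.20 to 4.24), against 1.68%, 1.62% and 1.53% with overlapping intervals, and in 0 of 574 GF B-like cells. Without thinning the share was 5.81% (3.86 to 8.34), against 3.55%, 1.95% and 2.87%. Regression, at 0.361 per 10000 for Foxp3 and 2.83 for Ikzf2, was near GF.

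In T-like cells 14 of 9098 genes were called higher in GF against each of the 3 stages (0.154%) and 29 lower (0.319%). Only 6 of the 14 and 3 of the 29 also had a Poisson interval apart from that of each stage, so most of the lower calls rest on few UMIs. Il1rl1, the receptor for the alarmin interleukin 33 on regulatory and type 2 lymphocytes, was 0.283 in GF (0.200 to 0.388), 0.0497, 0.0739 and 0.126. Areg, the tissue repair ligand amphiregulin, was 0.387, 0.0814, 0.0246 and 0.167, but 1 cell held 46.2% of the GF UMIs. These 2 are the called members of the type 2 list, of which 5 of 11 genes were tested, and Areg is also the called regulatory T gene. Other genes named by rank among the higher were Gm28438, Gm49980, Tmem181b-ps, Ttn, Slc35g1 and Gm26532.

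Among the genes lower in GF T-like cells, Oas3, an interferon-induced sensor of double-stranded RNA, was 0.134 per 10000 in GF (0.0795 to 0.212), 0.310, 0.456 and 0.475. Ifi208, of the same interferon-inducible family as Ifi213, was 0.358, 0.753, 0.998 and 1.04. These and mt-Nd3 are the 3 genes with intervals apart from every stage. The interferon list as a whole was not lower than in Gestation: 29 of 32 genes were tested, 0 were called, and the sum was 27.5 in GF, 25.7, 37.0 and 39.7. The genes named by rank among the lower, B3galt6, Brca2, Gm42822, Man2b2, Prr5l, Tyw5, Arhgap11a and Qsox2, had intervals that overlapped at least 1 stage.

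The makeup by coreceptor was close in the 4 samples. In cells thinned to 1000 UMIs, Cd4 had a UMI in 11.3% of GF T-like cells, 10.7% of Gestation, 10.7% of Lactation and 9.32% of Involution. Cd8a was found in 21.1%, 17.8%, 21.1% and 22.2%. Intervals of GF overlapped those of each stage for both genes. Trdc, the constant gene of the delta receptor chain, was found in 1.30% of GF T-like cells (0.480 to 2.82), 2.49%, 1.95% and 4.41% (2.90 to 6.39 in Involution), and in 0.523% of GF B-like cells as background. GF lay below Involution with intervals just apart, and the unthinned shares were 2.15%, 3.96%, 2.60% and 7.93%. Cells under 1000 UMIs, 5 in GF and 0 to 4 in the stages, were left out of thinned shares.

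The cytotoxic effector list was lower in GF T-like cells than in Gestation and Lactation, at 29.9 per 10000 against 42.2 and 79.7, and higher than the 18.7 of Involution. Ccl5, a chemokine of effector T cells, made up much of it at 15.2, 25.9, 55.2 and 7.58. Genes of naive and recirculating T cells summed to 40.4 in GF, 41.3 in Gestation, 18.3 in Lactation and 42.7 in Involution. None of the 14 genes tested in either list was called. Pdcd1, the checkpoint receptor PD-1, was 0.238, 0.0723, 0.0246 and 0.142, and 5 of 6 checkpoint genes tested were above all 3 stages with 0 called.

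A larger share of genes was called in the Trgv2/Trgc2 cluster than in T-like cells, but from fewer UMIs. The cluster had 760253 UMIs in GF and 299093 in Lactation, where T-like cells had 1342564 and 811731. With fewer UMIs counting error alone passes a 2-fold rule more often, so the shares do not show which cells differed more. The cluster is led by Trgv2, Trgc2, Gzmb, Klra7, Itgae, Gzma and Trdc, and 92.6% of its cells had a Cd3e UMI and 80.1% an Itgae UMI, so it carries intraepithelial T cell genes. It was left without a type name because its leading genes mix T and NK markers. GF had 220 such cells, Gestation 225, Lactation 80 and Involution 57. In it 38 of 5051 genes were called higher in GF against each stage (0.752%) and 19 lower (0.376%). Of the 38, 22 had intervals apart from each stage, and of the 19, 0 did. Higher calls were thus 66.7% of all calls, and 53.8% when mitochondrial and ribosomal genes were left out of the totals (28 higher and 24 lower) or 56.6% with TMM scaling (30 and 23). With the stricter tag rule, which left a sample with 8 cells, 6 were higher and 35 lower.

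Several receptors stood out in GF cells of the cluster, but its makeup differed by sample. Without thinning, Thy1 had a UMI in 34.1% of its GF cells, 73.8% in Gestation, 58.8% in Lactation and 70.2% in Involution. Cd3d was near even at 91.4%, 91.6%, 93.8% and 91.2%. In cells thinned to 1000 UMIs, Trdc was found in 28.3%, 13.4%, 18.8% and 21.1%, with GF apart from Gestation alone. Values within the cluster may thus compare different mixtures. What part makeup has in its differences was not tested. Glp1r, the incretin receptor that intestinal intraepithelial lymphocytes are known to express, had 0.737 UMIs per 10000 in GF (0.556 to 0.957), 0.0285 in Gestation, 0.10 in Lactation and 0.0636 in Involution. Cd200r2, of the inhibitory CD200 receptor family, was 0.973 in GF (0.764 to 1.22), 0.0854, 0.0669 and 0.0953. P2rx7, an ATP-gated channel, was 0.474 in GF (0.332 to 0.656), 0.114, 0.0334 and 0.0318. For each of the 3 genes the GF interval lay above that of every stage, and no single cell held over 8.93% of the UMIs of Glp1r, 5.41% of Cd200r2 or 5.56% of P2rx7 in GF. In Balb/c, with 335 such cells, they were 0.119, 0.0794 and 0.111, near the stages and not GF.

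NK receptor genes of the Ly49 family and their neighbours were also higher. Klra9 was 2.64 per 10000 in GF (2.29 to 3.04), 0.522, 0.769 and 0.699, and 0.357 in Balb/c. Klra13-ps, a pseudogene of that family, was 1.32, 0.18, 0.435 and 0.350. Klrb1b was 0.539 in GF, 0.114 in Gestation, 0 in Lactation and 0.0953 in Involution. Klra genes are near-identical copies, so reads may have been divided among them or lost in counting, and mouse strains are known to differ in which of them they have. Adgrg1, an adhesion receptor of cytotoxic cells, was 0.842, 0.199, 0.201 and 0.222. Itgad, an integrin chain, was 0.934, 0.142, 0.368 and 0.0636. Lag3, an inhibitory receptor, was 0.684 in GF, 0.209, 0.301 and 0.318, and its GF interval overlapped those of Lactation and Involution. The other genes named by rank were Olfr1259, Atp8a2, Tsga10 and Camk2b among the higher.

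Effector genes of the cluster were mixed. Gzma, Gzmb, Itgae and Trdc helped define the cluster, so their values are a description: Gzma was 127 per 10000 in GF, 43.2 in Gestation, 91.5 in Lactation and 59.9 in Involution, and Trdc was 4.60, 2.04, 2.81 and 2.26. Among genes that did not lead it, Itga1, a collagen-binding integrin of resident cells, was 9.58, 5.89, 8.56 and 5.97. Cxcr6, a residency receptor, was 4.55 in GF (4.08 to 5.06), 2.65, 3.21 and 2.54. Gzmk was 0.539, 0.0474, 0.201 and 0.0953 and was the 1 member of the cytotoxic list called. The cytotoxic list summed to 332 in GF, 201, 309 and 205, with 15 of 16 genes tested, 7 above all stages and 2 below all stages. Without Gzma and Gzmb, which led the cluster, it was 184 in GF (181 to 187), 140, 201 (196 to 206 in Lactation) and 126, so GF then lay below Lactation. The residency list summed to 277, 161, 242 and 177, with 16 of 19 tested, 7 above all stages, 5 below all stages and 0 called. Without Itgae, Gzmb and Gzma it was 118, 95, 123 and 91.2, with GF and Lactation overlapping. The type 1 genes summed to 24.6, 23.6, 27.2 and 27.5, with 10 of 10 tested, 0 above all stages, 3 below all stages and 0 called.

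A pair of genes of recirculating cells was lowest in GF. S1pr1, the receptor that guides lymphocytes out of tissue, was 0.105 in GF (0.0454 to 0.207), 0.493, 0.267 and 0.572, and was called. Klf2, the factor that drives S1pr1, was 0.434 in GF (0.299 to 0.610), 1.47, 0.769 and 1.68. Both had intervals apart from Gestation and Involution and overlapping that of Lactation. The list of naive and recirculation genes did not follow them as a whole: 9 of 14 were tested, 1 was called lower, 2 were below all stages and 0 above. It summed to 6.76 in GF, 7.89 in Gestation, 4.95 in Lactation and 13.7 in Involution, with a median log2 ratio of -0.49, 0.56 and -1.66 where all genes had 0.08, 0.06 and 0.11. The other genes named by rank among the lower were Slco3a1, Cd9, Pacsin1, Sidt1, B230307C23Rik, Cdca7 and Wdr95. The 4 haemoglobin genes were called higher as well, with nearly all their UMIs in 1 GF cell.

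**Figure D3:**
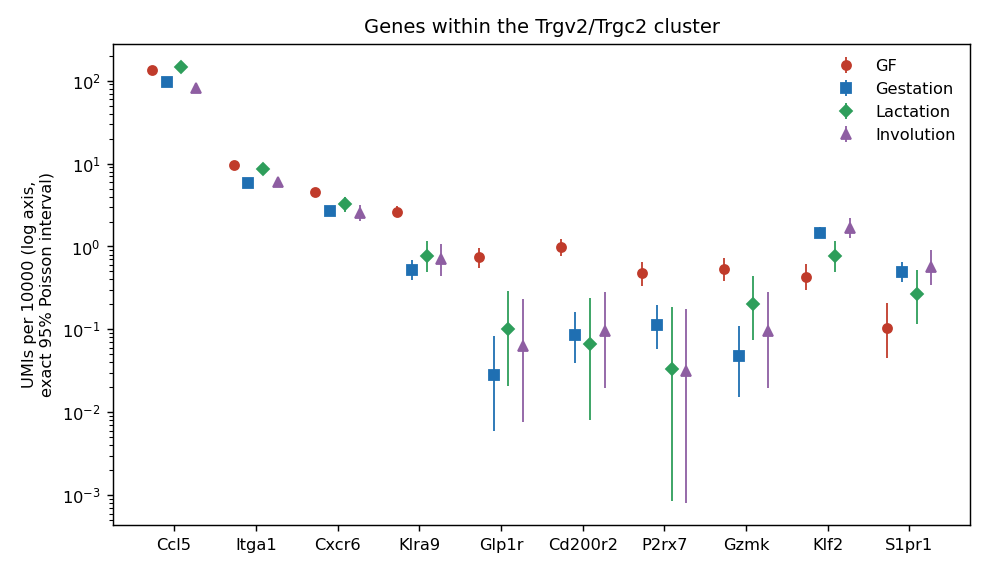
UMIs per 10000 (y axis, log scale) of 10 genes in the Trgv2/Trgc2 cluster by sample, with exact 95% Poisson intervals. Klra9, Glp1r, Cd200r2 and P2rx7 are highest in GF with intervals apart from each stage, and Klf2 and S1pr1 are lowest in GF.

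In cells thinned to 1000 UMIs, Cd8a had a UMI in 30.1% of the cluster's GF cells (24.1 to 36.7), 20.5% in Gestation (15.4 to 26.4), 17.5% in Lactation (9.91 to 27.6) and 15.8% in Involution (7.48 to 27.9). GF was the highest, with intervals that overlapped those of each stage. Without thinning these shares were 54.1%, 33.8%, 25% and 33.3%, at median depths of 3236, 4544, 3623 and 5199 UMIs, so the shallowest cells had the highest share.

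NK-like cells were compared with Gestation and Involution alone, since Lactation had 40. Here 19 of 4183 genes were called higher in GF (0.454%) and 4 lower (0.0956%), and 18 of the 19 and 0 of the 4 had intervals apart. T cell receptor complex genes were among the higher. Cd3g was 2.47 per 10000 in GF, 0.875 in Gestation and 0.565 in Involution. Cd3d was 2.68, 1.02 and 0.792, Cd3e 1.55, 0.466 and 0.415, and the receptor chain Trac 1.21, 0.452 and 0.358. The granzyme gene Gzma, an NK marker, was 38.3 in GF (36.8 to 39.7), 56.8 and 52.6, and the perforin gene Prf1 was 5.16, 6.03 and 7.13, neither of them called. The GF class thus held more T cell RNA and less granzyme A RNA than that of both stages, and what part T cells in this class have in the other differences was not tested.

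Ly6c2, a surface protein of memory-type lymphocytes and monocytes, was 7.20 per 10000 in GF NK-like cells (6.58 to 7.85), 2.06 in Gestation, 1.83 in Involution and 1.53 in the Lactation cells. It makes up a large part of the difference in the interferon list, which was 24.7 in GF, 14.6 and 17.2. Other list genes leaned the same way: of 14 tested, 10 were above both stages, 0 were below both and 1 was called higher. Their median log2 ratio was 0.40 against Gestation and 0.14 against Involution, where all genes had 0.01 and 0.03. Klra6 was 0.712, 0.0988 and 0.170, Klra1 2.28, 0.691 and 1.11, Cd200r1 0.484, 0.0988 and 0.113, and Itgad 0.641, 0.169 and 0.188. Gm49980, Tesc and Ier5l completed the ranked names, with Traf3, Ccdc88a, Pih1d1 and Sgk1 lower.

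Monocyte-like cells of GF had the least interferon response RNA of the 3 samples with enough cells. The class is 1 cluster led by Ace and Chil3, a profile of patrolling monocytes, with 91 GF, 89 Gestation and 97 Involution cells. Lactation had 18 and is given as a value only. The list's 29 tested genes of 32 included 27 that were below both stages, 6 called lower and 0 called higher. The background was 20 of 2536 genes called lower (0.789%) and 10 higher (0.394%). Intervals were apart from both stages for 9 of the 20 and 8 of the 10. The median log2 ratio of the tested list genes was -0.61 against Gestation and -1.45 against Involution, where all genes had 0.02 and 0.04. The whole list summed to 50.2 per 10000 in GF, 63.5 in Gestation, 113 in Involution and 65.9 in Lactation.

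Isg15, a ubiquitin-like protein among the first made after interferon, had 0.358 UMIs per 10000 in GF (0.185 to 0.625), 1.26 in Gestation (0.931 to 1.66) and 3.79 in Involution (3.24 to 4.4). Rsad2, the antiviral protein viperin, had 0.268 (0.123 to 0.510), 0.847 (0.583 to 1.19) and 3.70 (3.16 to 4.31). Irf7, the factor that amplifies interferon production, had 1.19 (0.852 to 1.62), 2.65 (2.16 to 3.21) and 4.43 (3.84 to 5.09). For these 3 GF was the lowest, with intervals apart from both stages. Ifit3 had 0.179, 0.514 and 1.91, Ifit2 0.209, 0.591 and 2.17, and Ifi213 0.179, 0.539 and 1.13, where the GF interval overlapped that of Gestation. Cxcl10, an interferon-induced chemokine outside the named ranks because 1 cell held 25.4% of its UMIs, had 0.119, 0.693 and 3.06.

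Not all of the list moved, and the low level is not GF's alone. Slfn1 was 0.954 in GF, 0.873 in Gestation and 1.80 in Involution. In the 18 Lactation cells Isg15 was 0.155 from 1 UMI and Rsad2 0.310 from 2, with intervals that span the GF values, while Irf7 was 3.1. Counted per cell, the list had a median of 28.4 per 10000 in GF, 30.8 in Gestation and 82.3 in Involution, and an upper quartile of 50.3, 63.7 and 134. The typical GF cell was thus near that of Gestation, and the gap to Gestation lay in the cells with most of this RNA.

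The promoters of 3 of the called genes are printed because these genes were low together and interferon-stimulated genes are known to carry a repeat of GAAA bound by interferon-activated factors. Shown are the 250 bases before the start, in the direction of the gene, from a RefSeq promoter table of build GRCm38.p6, with each match in capitals. A match is GAAA, any 2 bases and GAAA again, read on either strand. Isg15 lies on the minus strand at chr4:156200819-156201068 and holds 3 overlapping matches. Ifit3 lies on the plus strand at chr19:34583279-34583528 with 2, and Rsad2 on the minus strand at chr12:26456453-26456702 with 1.
Isg15: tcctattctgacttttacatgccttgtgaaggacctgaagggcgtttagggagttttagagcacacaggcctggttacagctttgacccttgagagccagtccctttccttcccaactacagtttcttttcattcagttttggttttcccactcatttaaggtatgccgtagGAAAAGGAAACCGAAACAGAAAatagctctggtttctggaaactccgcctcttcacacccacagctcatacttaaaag
Ifit3: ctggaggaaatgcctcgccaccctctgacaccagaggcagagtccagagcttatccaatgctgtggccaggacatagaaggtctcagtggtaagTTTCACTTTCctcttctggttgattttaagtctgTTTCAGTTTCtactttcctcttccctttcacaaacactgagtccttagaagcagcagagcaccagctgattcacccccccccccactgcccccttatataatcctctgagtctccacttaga
Rsad2: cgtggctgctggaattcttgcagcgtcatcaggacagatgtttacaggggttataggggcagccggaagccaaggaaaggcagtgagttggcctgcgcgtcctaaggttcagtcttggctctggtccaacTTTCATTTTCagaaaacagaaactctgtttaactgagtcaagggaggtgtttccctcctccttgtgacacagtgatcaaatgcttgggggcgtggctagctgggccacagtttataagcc

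A match was found in 4 of the 6 called genes, with Ifi213 the other one, and in 14 of the 21 tested list genes with a listed promoter (66.7%). Of all 27025 genes with a listed promoter, 3.46% have one in this window. Ifit2 and Irf7 had no match there. These are matches of letters, not sites of binding.

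**Figure D4:**
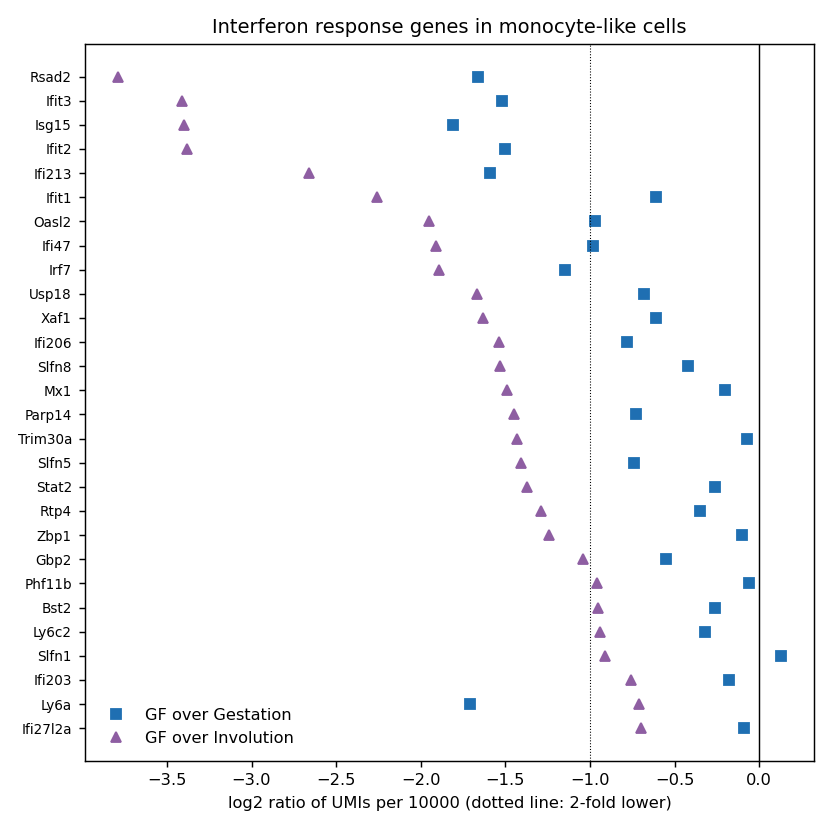
log2 ratio of UMIs per 10000 (x axis) in GF monocyte-like cells over Gestation and over Involution for the tested interferon response genes shown on the y axis. The points shown against Involution all lie below 0, and those against Gestation lie below 0 except for Slfn1.

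MHC class II genes, which present antigen, also had lower values in GF monocyte-like cells than in both stages, and 1 was called. H2-Eb1 was 6.38 per 10000 in GF (5.56 to 7.30), 13.8 in Gestation (12.6 to 15.0) and 24.8 in Involution (23.4 to 26.3), and was the gene called. H2-Ab1 was 9.31, 16.8 and 28.3, and Cd74, the invariant chain, was 35.5, 53.5 and 80.9. The list summed to 64.1, 106 and 171, with 6 of 7 tested genes below both stages, and to 35.6 in the Lactation cells. Markers within the class moved beside this. Ly6c2 was 4.32 in GF, 5.39 in Gestation and 8.31 in Involution, Ccr2 6.08, 5.26 and 8.18, and Ace, a gene of patrolling monocytes, 7.22, 7.19 and 5.21. Cd209a, a dendritic cell marker, was 0.119, 0.334 and 0.465. What part the balance of monocyte subsets and dendritic cells has in the interferon and MHC values was not tested.

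A pair of sensor genes was higher in the same cells. Cd14, the co-receptor for bacterial lipopolysaccharide, was 1.61 per 10000 in GF (1.21 to 2.10), 0.616 in Gestation (0.395 to 0.917) and 0.443 in Involution (0.271 to 0.685). Clec4e, the receptor Mincle for damaged cells and mycobacterial glycolipid, was 3.13 (2.56 to 3.79), 1.46 and 1.13. Both had intervals apart from the stages. The sensing list as a whole was 22.8, 20.3 and 20.5, with 11 of 26 tested and 1 called. Gm42031, Ncoa3, Gm45153, Cpd, Wap and Frrs1 were the other names by rank among the higher, and Cd40, Ifi205 and Isg20 among the lower. Wap, a milk protein gene, was 1.55, 0.565 and 0.665, and milk protein RNA summed to 16.4, 9.22 and 7.76.

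Macrophage-like cells, with only 27 in Lactation, had 20 of 6105 genes called higher in GF than in Gestation and Involution (0.328%) and 61 lower (0.999%). Intervals were apart for 16 of the 20 and 7 of the 61. Ccl12, a chemokine that recruits monocytes, was 6.31 per 10000 in GF (5.70 to 6.97), 1.45 in Gestation and 1.74 in Involution. Mmp12, the macrophage elastase, was 10.8, 4.85 and 1.36, but it was 12.6 in the Lactation cells and 12.5 in Balb/c. It also leads 1 of the 2 macrophage clusters, Mmp12/H2-M2, which was 52.2% of the class in GF, 55.3% in Gestation and 23.5% in Involution. Lilrb4a, an inhibitory receptor, was 1.49, 0.532 and 0.708, and Hyou1, a chaperone of the endoplasmic reticulum, 0.825, 0.349 and 0.315. Interferon response genes in these cells lay between the 2 stages: 29 of 32 were tested and 0 were called. The sum was 39.5 in GF (38.0 to 41.1), above 30.1 in Gestation (28.6 to 31.6) and below 45.6 in Involution (44.5 to 46.7).

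Milk and B cell RNA differed in the macrophage-like cells as well. Wap was 2.09 per 10000 in GF, 0.936 and 0.827, Csn3 0.971, 0.257 and 0.336, and the milk protein list 25.5, 16.0 and 19.8, with 4 of 7 tested genes called higher. Wap and Csn3 are made by epithelium, but the list gene with most UMIs in macrophage-like cells was Trf. In B-like cells, where Csn2 had most, the list summed to 14.1, 14.3 and 12.4, so the sums of these classes differ in makeup. Ighd was 0.0971, 0.422 and 0.434, Cd79b 0.146, 0.459 and 0.385, and Ebf1 0.0809, 0.440 and 0.280, all B cell genes with intervals apart. What part free RNA has in these values was not tested. Sparc, Mfng, Bcl11a, Ctsw and Gm5547 were other lower names by rank, and Gm42031, Topbp1 and Tagap the other higher ones.

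A few genes differed in GF in several lineages. Of 5762 genes tested in at least 3 of the 6 lineages, 4 were called in the same direction in 3 or more: Gm42031 and Gm49980 higher, and Ifi208 and mt-Nd3 lower. Gm42031 was called in B-like, macrophage-like and monocyte-like cells, and mt-Nd3 in T-like, B-like and macrophage-like cells. The calls of the other pair were in lymphocytes alone: T-like, B-like and NK-like cells for Gm49980, and T-like, Trgv2/Trgc2 and B-like cells for Ifi208. Over all cells, mt-Nd3, a mitochondrial gene of respiratory complex I, was 0.0599 UMIs per 10000 in GF, 0.307 in Gestation, 0.191 in Lactation, 0.248 in Involution, 0.265 in Regression and 0.0676 in Balb/c. Its neighbour in function mt-Nd1 was 14.6, 14.6, 14.2, 13.8, 14.2 and 15.0, within a narrow range. Gm42031 was 0.533 in GF and 0.0310 to 0.121 in the other 5 samples, Gm49980 0.527 and 0.0919 to 0.238, and Ifi208 0.135 and 0.299 to 0.495.

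Some of these genes put GF beside Balb/c and others beside the stages. Gm28438, chosen with the next 2 after its values were seen, was 0.282 per 10000 in GF and 0.271 in Balb/c, against 0.00669 in Gestation, 0 in Lactation, 0.00676 in Involution and 0.0152 in Regression. Tmem181b-ps was 0.247 in GF and 0.267 in Balb/c, against 0.0627, 0.146, 0.0627 and 0.0650. H2-Ea, an MHC class II chain that C57BL mice are known to lack, was 0.0237 in GF, 0.0293, 0.0365, 0.0550 and 0.206 in the stages in the same order, and 6.16 in Balb/c. GF was thus near Balb/c for mt-Nd3, Gm28438 and Tmem181b-ps and near Gestation and Lactation for H2-Ea. The list of strain-linked genes, with most UMIs in H2-K1 and H2-D1, was not picked in this way. In NK-like cells it summed to 78.5 in GF, 71.1, 80.1, 82.1 and 80.0 in the stages, and 54.7 in Balb/c, so GF lay among the stages. In T-like cells it was 43.5 in GF, 38.5, 49.3, 38.3 and 39.5 in the stages, and 44.5 in Balb/c, which was not set apart. In the Trgv2/Trgc2 cluster GF was set apart, at 59.3 (57.5 to 61.0). There the stages had 41.6, 44.3, 46.5 and 50.1, and Balb/c 41.2. In that cluster 1 of 4 tested genes was called higher, and 3 were above Gestation, Lactation and Involution. A difference of strain or substrain between GF and the stages and germ-free status cannot be told apart for any gene described here.

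**Figure D5:**
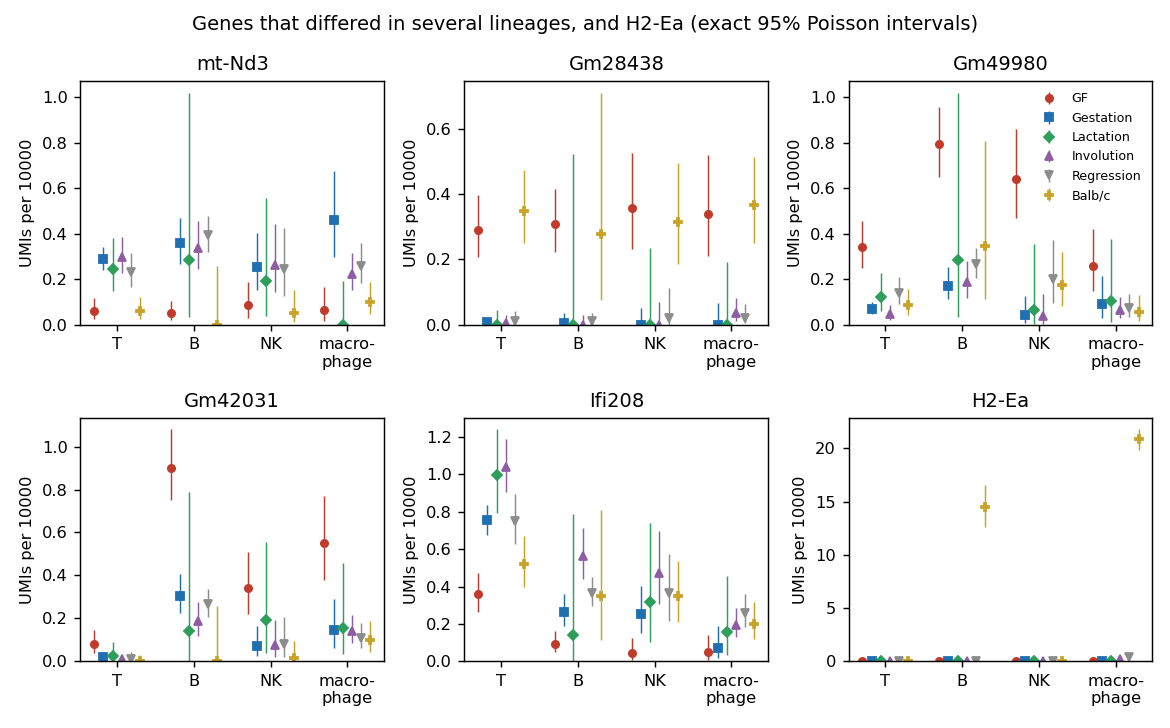
UMIs per 10000 (y axes) of 6 genes in T-like, B-like, NK-like and macrophage-like cells (x axes) of 6 samples, with exact 95% Poisson intervals. GF lies with Balb/c for mt-Nd3 and Gm28438, above the other samples for Gm42031 in B-like cells, and with the stages for H2-Ea.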

How the data were processed

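The deposited gene and tag matrices hold raw UMI counts per barcode, written by the authors with Cell Ranger 6.1.0 on build mm10, per the submitters' processing notes. The authors' deposited sheet pairs tags with names and was used as text. Barcodes were filtered and assigned as given above. Doublets were called with Scrublet in scanpy 1.11.5 (Python 3.11.15) at an expected rate of 0.08, which marked 7.67% of the kept cells, and were removed. Leiden clustering (resolution 1.0) used 2000 variable genes, 30 components and 15 neighbours. A cluster was called "-like" from marker lists, and mixed ones keep their leading genes as a name. Raw counts were summed per sample and lineage with at least 50 cells per sample. A gene was called at 2-fold or more against each compared stage with at least 30 UMIs in the highest sample, and sums under 3 UMIs were set to 3. Up to 8 genes per direction were named by the smallest of their log2 folds, without mitochondrial and ribosomal genes and those with over 20% of UMIs in 1 cell, beside called and leading members of 22 gene lists. Some 8 list genes had no match in the files. Levels are per 10000 UMIs and carry no length correction, so they are compared within a gene. Strand use in counting is not given in the sources used here. The rule was tested on simulated Poisson counts. The planted changes there were larger than 2-fold and in genes with at least 30 expected UMIs in every sample. That test does not show how the rule treats changes near 2-fold, lower counts or UMIs held by 1 cell. edgeR 4.0.16 (R 4.3.3) gave TMM factors for 1 alternative. Members and lists were chosen with earlier results of these data known. The setting against Gestation and Involution alone, the demand that Poisson intervals lie apart, and list sums without genes that lead the cluster were chosen after seeing the data. A few genes that the rule would name are not reported here.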

Additional observations from a re-analysis of the deposited data

Results flagged for a closer look

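Tags that the sheet does not name had counts in the tag matrix. HT1 had 973 counts, with at least 5 in 5 cells. HT11 had 74 counts, HT13 19, HT7 14, HT3 5 and HT15 5. The rule chose only among tags that the sheet names, so no cell could be assigned to the tags listed here. They are listed because a tag outside the sheet with more than 3 counts is a signal in data that no comparison uses.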

How the results depend on the processing

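Of 302 alternative values 200 stayed within the counting interval (counts of genes within 1.5 times), 98 moved and 4 reversed. The T-like share of GF, 20.9%, was 23.6% under a marker gate that also takes the T cells of the cytotoxic clusters, above Involution at 18.6%. The Trgv2/Trgc2 share was 3.28% at a resolution of 2.0, below Gestation. The T-like share was 23.6% and 23.8% at resolutions of 0.5 and 2.0, 23.0% when immunoglobulin, receptor, milk, haemoglobin, ribosomal and mitochondrial genes were left out of the clustering together, 24.2% without the intraepithelial genes and 28.7% with B-like and plasma-like cells out of the denominator. The cytotoxic group was 22.0% and 34.0% under that reduced gene set and without B-like and plasma-like cells, and the macrophage group 6.62% with the stricter tag and 11.6% with that denominator. Unthinned shares in T-like cells were 20.9% for Cd4, 37.0% for Cd8a, 41.5% for Cd8b1 and 5.81% for Foxp3, and at 2000 UMIs 32.9% for Cd8a and 41.0% for Cd8b1. No alternative moved the plasma cell values past their intervals. Counts of called genes at 100 UMIs and at 1.5-fold were 3 and 265 in T-like, 8 and 233 in the Trgv2/Trgc2 cluster, 6 and 164 in B-like, 5 and 155 in NK-like, 10 and 352 in macrophage-like and 7 and 169 in monocyte-like cells. With Poisson intervals apart they were 9, 22, 16, 23 and 17 for T-like, Trgv2/Trgc2, B-like, macrophage-like and monocyte-like cells. Without Lactation T-like cells had 81 calls and the Trgv2/Trgc2 cluster 136, which share 43 and 57 with the main calls. This sharing follows from the rule. A call against each of 3 stages includes the fold against these 2, and the genes tested numbered 9098 and 5051 as before. NK-like calls were 82 with doublets kept and 70 at a resolution of 2.0, and monocyte-like calls 51 with the stricter tag. Without its gene with most UMIs, the monocyte interferon log2 ratio was -0.52 and -1.47 (Gestation, Involution), that of MHC class II -0.86 and -1.65, the regulatory T ratio against Involution 0.26, and the Trgv2/Trgc2 cytotoxic ratio 0.92 and 0.30 (Gestation, Lactation). The regulatory T ratio against Lactation was 0.56 at a resolution of 2.0. Without mitochondrial and ribosomal genes the Trgv2/Trgc2 cytotoxic ratios were 0.62, 0.04 and 0.60. Without the cluster's 10 leading genes, a setting chosen after seeing the data, they were 0.39, -0.13 and 0.55, and the residency ratio against Lactation was -0.06. The causes were not tested. Sums of the Trgv2/Trgc2 cluster with doublets kept or at a resolution of 2.0 had too few cells, and no Gzmc/Xcl1 cluster formed at a resolution of 0.5. No paired analysis was possible because each name has 1 pooled sample.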

Other observations

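The cells on HT2, which the sheet names Germ-free, entered no share or call, and 5 of their levels are given as values. Over all cells HT2 had 0.304 UMIs of mt-Nd3 per 10000, 0.0112 of Gm28438, 0.0774 of Tmem181b-ps and 0.117 of Gm42031, where GF had 0.0599, 0.282, 0.247 and 0.533. Its H2-Ea level was 0.0764.

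Mast-like cells, which store histamine in tissue, were 0.450% of GF (0.216 to 0.826), 0.0289% of Gestation, 0 of 683 in Lactation and 0.784% of Involution. ILC2-like cells, the innate source of type 2 cytokines, were 1.30% of GF, 0.433% of Gestation, 0.878% of Lactation and 1.07% of Involution. The Ly6c2/Sidt1 cluster was 1.89% of GF (1.36 to 2.55), 4.42% of Gestation, 2.34% of Lactation and 4.5% of Involution.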
